A study of Arabidopsis thaliana with 18 samples.

Results

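Jasmonate inactivation enzymes are the proteins that remove the active hormone jasmonoyl-isoleucine or its precursor jasmonic acid. They were taken as the 9 Arabidopsis genes CYP94B1, CYP94B3, CYP94C1, ST2A, JOX1, JOX2, JOX3, JOX4 and IAR3 and were matched by name to the gene rows of the count table. Of these, 8 were matched among 23790 genes, and JOX1 was not analysed here. CYP94B1 had between 0 and 4 reads in each of the 18 libraries and did not pass the low count filter, so 7 members were tested among 18344 genes. No test result of a member therefore speaks for CYP94B1 or JOX1.

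RNA was sequenced from the rosette leaves of Arabidopsis thaliana plants that were 4 weeks old and kept on a day of 8 h light and a night of 16 h. The NAA50 line carries an artificial microRNA against NAA50, an N-terminal acetyltransferase gene, and the scrambled line carries an artificial microRNA of scrambled sequence. Both transgenes are switched on by dexamethasone, and the labels give a spray of 50 μM dexamethasone for every sample. The groups were the NAA50 line at 0 h, 12 h and 24 h after the spray and the scrambled line at 0 h, 12 h and 24 h, with 3 libraries in each. Each library held leaf tissue pooled from the leaf numbered 4 of 4 plants, and the labels name no cell type in which the microRNAs are made and no second line for either construct. They do not say that the libraries of a group came from separate growths, so the p-values measure the spread between these pools. There was no unsprayed series, so hours after the spray and exposure to dexamethasone cannot be told apart within a line. Nor can the hour of the day where 12 h is compared with another time. By the labelled times 0 h and 24 h share an hour of the day, yet genes of the daily clock differed between them, as given below.

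In leaves, wounding and infection lead to the making of jasmonic acid, which JAR1 joins to isoleucine. The conjugate brings together the receptor COI1 and the JAZ repressors, the JAZ proteins are destroyed, and MYC factors then switch on their targets, which include JAZ genes and inactivation genes. The signal is ended at several points. CYP94B1 and CYP94B3 hydroxylate the conjugate at its outer end and CYP94C1 oxidises it further to the carboxylic acid, the JOX oxygenases hydroxylate free jasmonic acid, ST2A attaches sulfate to hydroxyjasmonic acid, and IAR3 cuts the amide bond of the conjugate and of conjugates of the auxin indole-3-acetic acid.

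Library totals lay between 10389333 and 12353330 counts, and 3 counts, the level taken as the floor, corresponded to 0.224 to 0.322 CPM, the count scaled to a fixed library size. CPM values below are adjusted by the trimmed mean of M-values (TMM) method. NAA50 itself was at 13.4, 11.6 and 12.7 CPM in NAA50 libraries at 0 h, against 14.8, 13.8 and 13.4 CPM in the scrambled line at 0 h. It was at 3.75, 4.15 and 3.12 CPM in NAA50 libraries at 12 h, against 16.6, 12.8 and 15.7 CPM in the scrambled line at 12 h, and at 2.36, 3.31 and 4.62 CPM in NAA50 libraries at 24 h, against 17.7, 17.1 and 16.0 CPM in the scrambled line at 24 h. The leaf markers summed to 15784 to 56356 CPM over all libraries, and the flower and silique markers to at most 1.102 CPM. The scrambled 0 h library 2 stood apart from the rest, with the lowest TMM factor, 0.865, and the highest share of reads, 11.2%, taken up by 10 genes. Since whole leaf tissue was sequenced, fewer cells of a type and less RNA per cell cannot be told apart in any value below.

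The clearest change was in CYP94B3 (AT3G48520; TAIR10.1 chromosome 3, positions 17974853 to 17976774, minus strand), the cytochrome P450 that starts the hydroxylation of jasmonoyl-isoleucine. It was at 16.1, 0.859 and 2.81 CPM in the NAA50 line at 0 h, at 49.9, 6.98 and 50.9 CPM at 12 h, and at 233, 213 and 136 CPM at 24 h. In the scrambled line it was at 1.51, 4.40 and 8.64 CPM at 0 h, at 7.56, 3.64 and 2.63 CPM at 12 h, and at 1.08, 6.25 and 5.61 CPM at 24 h. At 24 h every NAA50 library lay far above every scrambled library, and the NAA50 line at 24 h also lay above all other groups. At 12 h the groups overlapped, because NAA50 library 2, at 6.98 CPM, was below scrambled library 1, at 7.56 CPM. At 0 h the NAA50 libraries spanned the whole range of the scrambled ones.

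CYP94B3 averaged 194 ± 51.1 CPM in the NAA50 line at 24 h and 4.31 ± 2.82 CPM in the scrambled line at 24 h (SD, n = 3 each), a log2 difference of 5.48 ± 0.93 (SE), or 44.7-fold, with an adjusted p of 0.000202 from edgeR's quasi-likelihood test. At 12 h it averaged 35.9 ± 25.1 CPM in the NAA50 line and 4.61 ± 2.61 CPM in the scrambled line (SD, n = 3 each), a log2 difference of 2.96 ± 0.87 (SE; edgeR adjusted p = 0.0117). At 0 h the averages were 6.59 ± 8.30 CPM in the NAA50 line and 4.85 ± 3.59 CPM in the scrambled line (SD, n = 3 each), and the log2 difference of 0.44 ± 0.91 (SE) did not pass (edgeR adjusted p = 0.844). In the edgeR fit over all 18 libraries, CYP94B3 was the sole member called in either direction between the lines at 12 h and at 24 h. With 1 of 7 members higher at each time, the shares of all tested genes called higher were 21.9% at 12 h and 23.9% at 24 h, and the shares called in either direction were 46.2% at 12 h and 47.9% at 24 h. At an unadjusted p under 0.05, CYP94B3 and JOX2 differed at 12 h and CYP94B3 alone at 24 h. For counts at an unadjusted p, here and below, the share of all tested genes is not given, so they cannot be set against one.

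Within the NAA50 line, CYP94B3 was higher at 12 h than at 0 h (log2 2.43 ± 0.83 SE, edgeR adjusted p = 0.0235), higher at 24 h than at 0 h (4.86 ± 0.89, adjusted p = 0.000261) and higher at 24 h than at 12 h (2.43 ± 0.77, adjusted p = 0.0370). Within the scrambled line the corresponding log2 differences were -0.08, -0.17 and -0.09, each with an SE of 0.95, and none passed. The response of the NAA50 line at 24 h, meaning the 24 h line difference less the 0 h line difference, was log2 5.04 ± 1.27 (SE; edgeR adjusted p = 0.00808), and at 12 h the like value of 2.51 ± 1.26 (SE) did not pass (adjusted p = 0.158). The line difference at 24 h exceeded that at 12 h by log2 2.53 ± 1.22 (SE), which did not pass either (edgeR adjusted p = 0.221).

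The differences of CYP94B3 between the lines at 12 h and 24 h, its response at 24 h and its change between 0 h and 24 h in the NAA50 line were called whichever library was left out. The response at 12 h was called without NAA50 0 h library 1, the highest of its group, at log2 4.32 (edgeR adjusted p = 0.0239). The difference between 12 h and 0 h in the NAA50 line was not called without NAA50 0 h library 2 (adjusted p = 0.0802), 0 h library 3 (0.0803), 12 h library 1 (0.0748) or 12 h library 3 (0.0717), or in an edgeR fit on only the groups compared (0.0703). That between 24 h and 12 h was not called without NAA50 12 h library 1 (0.0747), library 2 (0.124) or library 3 (0.0542), without NAA50 24 h library 1 (0.0928) or library 2 (0.0749), or by DESeq2 (0.0516).

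**Figure D1:**
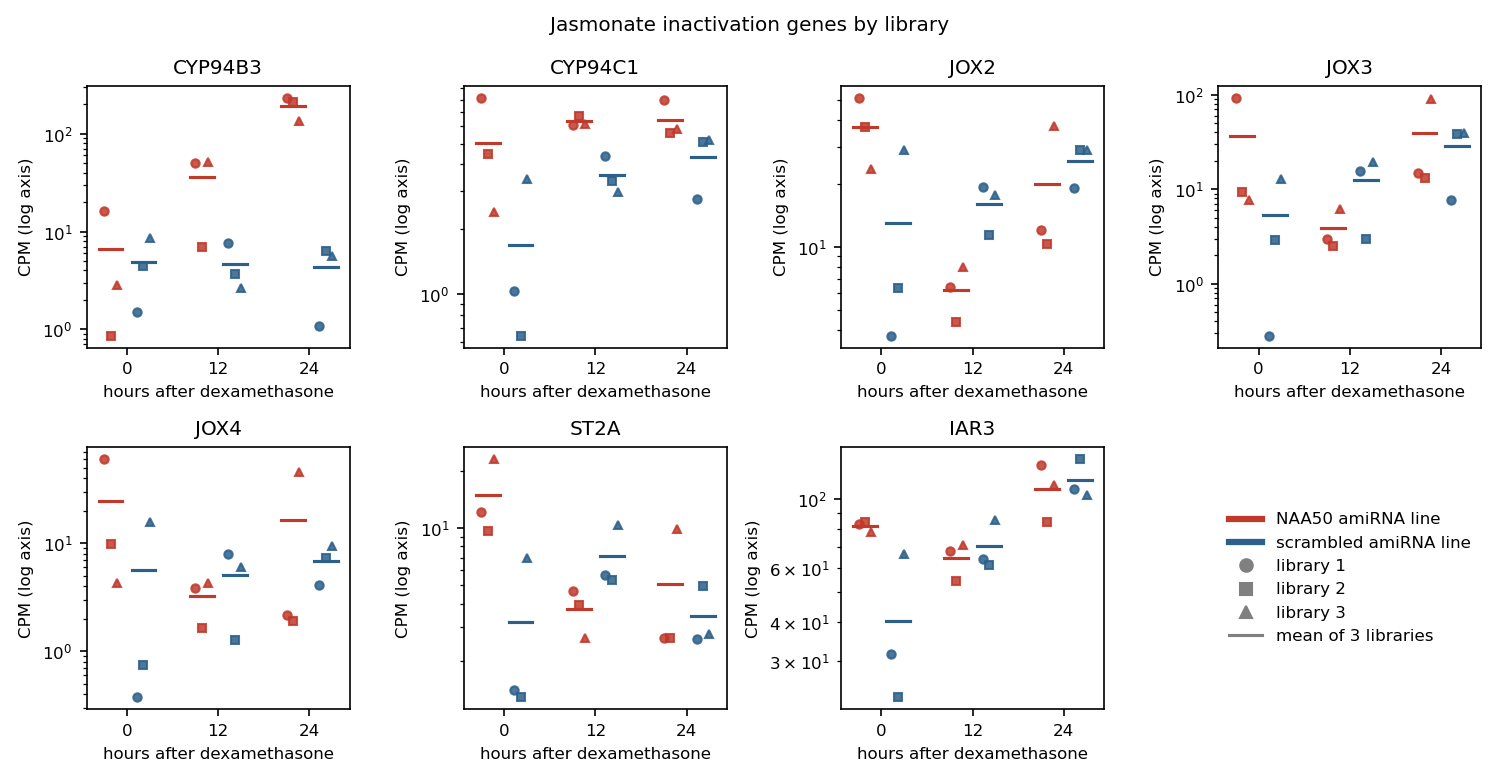
Normalised level of each tested member in every library, in TMM-scaled CPM on a log axis, with the NAA50 line (red) left of the scrambled line (blue) at 0, 12 and 24 h; symbols mark libraries 1 to 3 and bars the group means. CYP94B3 lies at 136 to 233 CPM in the NAA50 line at 24 h and at no more than 8.64 CPM in any scrambled library, while the JOX genes and ST2A spread widely within groups.

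The 300 bases before the annotated start of CYP94B3 are shown with those of JOX3 and JOX4, whose levels moved together over the libraries as described below, so that the start regions of genes with unlike patterns can be read side by side. They come from the TAIR10.1 RefSeq genome at chr3:17976775-17977074 for CYP94B3, chr3:20769411-20769710 for JOX3 and chr2:16014992-16015291 for JOX4, all on the minus strand and written 5′ to 3′ towards the gene. Capitals mark matches to the motifs searched on both strands, which were the G-box CACGTG, its variant AACGTG, the GCC box GCCGCC and the W box TTGACC or TTGACT.
CYP94B3: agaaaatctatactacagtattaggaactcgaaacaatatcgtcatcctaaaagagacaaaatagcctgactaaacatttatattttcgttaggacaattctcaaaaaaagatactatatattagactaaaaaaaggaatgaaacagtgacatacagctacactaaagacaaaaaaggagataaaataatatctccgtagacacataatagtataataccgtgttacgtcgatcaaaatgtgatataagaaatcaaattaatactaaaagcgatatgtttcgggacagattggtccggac
JOX3: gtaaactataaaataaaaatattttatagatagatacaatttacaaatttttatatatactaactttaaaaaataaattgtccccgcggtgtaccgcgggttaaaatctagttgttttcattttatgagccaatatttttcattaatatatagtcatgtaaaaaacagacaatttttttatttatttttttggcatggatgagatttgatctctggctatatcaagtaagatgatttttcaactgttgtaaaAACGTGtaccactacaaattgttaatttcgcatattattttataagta
JOX4: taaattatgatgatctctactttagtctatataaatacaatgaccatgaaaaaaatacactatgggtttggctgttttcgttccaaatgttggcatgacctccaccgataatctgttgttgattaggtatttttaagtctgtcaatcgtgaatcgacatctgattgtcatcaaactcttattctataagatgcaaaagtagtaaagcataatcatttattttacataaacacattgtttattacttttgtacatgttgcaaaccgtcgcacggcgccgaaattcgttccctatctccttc
The JOX3 window holds the G-box variant, at 48 to 43 bases before the start, and the CYP94B3 and JOX4 windows hold none of these letters. Among 27443 protein-coding genes, 7.09% of windows of this length hold the G-box, 8.71% the variant, 2.26% the GCC box and 32.3% a W box. Of the other members, the CYP94B1 window holds a W box, the JOX1 window a G-box and the variant, and those of CYP94C1, ST2A, JOX2 and IAR3 none. The JOX2 window shares 251 bases with the neighbouring gene AT5G05598. A window without a match shows only that these letters are not in it.

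CYP94C1 (AT2G27690; chromosome 2, positions 11809279 to 11811280, plus strand), the P450 of the second oxidation step, stayed at a low level in all groups. It was at 8.14, 4.49 and 2.41 CPM in the NAA50 line at 0 h, at 6.09, 6.74 and 6.16 CPM at 12 h, and at 7.96, 5.58 and 5.81 CPM at 24 h. The scrambled libraries were at 1.04, 0.644 and 3.42 CPM at 0 h, at 4.37, 3.34 and 2.99 CPM at 12 h, and at 2.78, 5.07 and 5.21 CPM at 24 h. Every NAA50 library lay above every scrambled library at 12 h and at 24 h, and at 0 h the groups overlapped. The log2 differences between the lines were 1.52 ± 0.49 at 0 h, 0.82 ± 0.44 at 12 h and 0.56 ± 0.43 at 24 h (SE), and none passed (edgeR adjusted p = 0.231, 0.138 and 0.30). On only the groups compared, edgeR called CYP94C1 higher at 12 h (0.87, adjusted p = 0.00492). In the scrambled line CYP94C1 was higher at 24 h than at 0 h (log2 1.32 ± 0.49 SE, edgeR adjusted p = 0.0325). That call was lost without scrambled 0 h library 1 (0.118) or library 2 (0.135) or without scrambled 24 h library 2 (0.0892) or library 3 (0.0869), or on only the groups compared (0.0948). For the NAA50 line the same comparison gave 0.36 ± 0.43, and the difference of the changes, -0.96 ± 0.65, did not pass (adjusted p = 0.287). CYP94B3 and CYP94C1 share 56.96% of aligned coding bases, and CYP94B3 and CYP94B1 share 75.79%. CYP94B1 had 20 reads over all libraries and was at 0 in 8 of 18.

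The JOX genes encode oxygenases that hydroxylate jasmonic acid before it is conjugated, and JOX2, JOX3 and JOX4 moved together. Over the 18 libraries, which share the same 6 groups, the log2 CPM of JOX2 and JOX3 had a Pearson r of 0.847, JOX2 and JOX4 of 0.867, and JOX3 and JOX4 of 0.859. CYP94B3 had r of -0.07 with JOX2, 0.335 with JOX3 and 0.166 with JOX4. The other members lay between, so moving with the JOX genes was not theirs alone. With JOX2, JOX3 and JOX4 in turn, IAR3 had r of 0.640, 0.722 and 0.577. In the same order ST2A had 0.670, 0.494 and 0.662, and CYP94C1 had 0.344, 0.568 and 0.543. These are descriptions of 18 libraries that differ in line and time. JOX2 and JOX3 share 67.87% of coding bases, JOX2 and JOX4 61.27%, and JOX3 and JOX4 61.3%. For no member did the longest coding match elsewhere in the genome reach 95% identity, and shorter matches were not listed.

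JOX2 (AT5G05600; chromosome 5, positions 1672070 to 1674770, plus strand) was at 51.2, 37.1 and 23.6 CPM in the NAA50 line at 0 h, at 6.41, 4.39 and 7.96 CPM at 12 h, and at 12.0, 10.3 and 37.5 CPM at 24 h. Scrambled controls were at 3.77, 6.33 and 28.8 CPM at 0 h, at 19.2, 11.4 and 17.6 CPM at 12 h, and at 19.1, 28.9 and 28.8 CPM at 24 h. At 12 h every NAA50 library lay below every scrambled library, and at 0 h and 24 h the groups overlapped. JOX2 was lower in the NAA50 line at 12 h than at 0 h (log2 -2.58 ± 0.63 SE, edgeR adjusted p = 0.00299). The line difference was log2 1.51 ± 0.60 at 0 h, -1.36 ± 0.63 at 12 h and -0.35 ± 0.58 at 24 h (SE), and none of the 3 passed (edgeR adjusted p = 0.319, 0.0885 and 0.646). The 12 h value less the 0 h value, the response at 12 h, was -2.87 ± 0.87 (SE) and passed (edgeR adjusted p = 0.0244). It was lost without NAA50 0 h library 1 (0.0576), NAA50 12 h library 1 (0.0507) or library 2 (0.0598), scrambled 0 h library 2 (0.0533) or scrambled 12 h library 1 (0.0521). At 24 h the response of -1.86 ± 0.83 did not pass (adjusted p = 0.104). It was called without NAA50 24 h library 3, at -2.71 (adjusted p = 0.0195), and without scrambled 0 h library 3, at -3.24 (0.00345). The line difference at 12 h was called by edgeR without scrambled 0 h library 3 (-1.36, adjusted p = 0.0239). It was also called by DESeq2 over all 18 libraries (-1.35, 0.0497) and by edgeR on only the groups compared (-1.31, 0.00311).

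JOX3 (AT3G55970, named JRG21 in the annotation; chromosome 3, positions 20766735 to 20769410, minus strand) spread widely, from 3 reads, the floor, in scrambled 0 h library 1 to 1201 reads in NAA50 24 h library 3. It was at 92.7, 9.26 and 7.64 CPM in the NAA50 line at 0 h, at 2.97, 2.51 and 6.16 CPM at 12 h, and at 15.03, 13.3 and 89.5 CPM at 24 h. The scrambled line held 0.283, 2.90 and 12.8 CPM at 0 h, 15.6, 2.95 and 19.5 CPM at 12 h, and 7.80, 38.8 and 39.5 CPM at 24 h. The groups overlapped at all 3 times, with NAA50 0 h library 1 and NAA50 24 h library 3 far above the other libraries of their groups. JOX3 was lower in the NAA50 line at 12 h than at 0 h (log2 -3.24 ± 1.18 SE, edgeR adjusted p = 0.0321). Without NAA50 0 h library 1 this was -1.12 (adjusted p = 0.434), and it was also lost without NAA50 12 h library 1 (0.0955), library 2 (0.0957) or library 3 (0.0526). The line difference was log2 2.76 ± 1.16 at 0 h, -1.72 ± 1.19 at 12 h and 0.46 ± 1.02 at 24 h (SE), and none passed (edgeR adjusted p = 0.341, 0.256 and 0.732). On only the groups compared, edgeR called JOX3 lower at 12 h (-1.67, adjusted p = 0.0493). The response at 12 h, -4.47 ± 1.66, did not pass (adjusted p = 0.0594). DESeq2 called it (-4.47, 0.0336), as did edgeR without NAA50 0 h library 2 (-4.93, 0.0459) or library 3 (-4.90, 0.0436), NAA50 24 h library 3 (-4.47, 0.0440) or scrambled 0 h library 3 (-6.29, 0.0274).

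JOX4 (AT2G38240; chromosome 2, positions 16012535 to 16014991, minus strand) was at 59.4, 9.83 and 4.26 CPM in the NAA50 line at 0 h, at 3.83, 1.65 and 4.27 CPM at 12 h, and at 2.16, 1.89 and 45.1 CPM at 24 h. In the scrambled line it was at 0.377, 0.751 and 15.7 CPM at 0 h, at 7.93, 1.28 and 6.07 CPM at 12 h, and at 4.12, 7.25 and 9.36 CPM at 24 h. The same NAA50 libraries, 0 h library 1 and 24 h library 3, and the scrambled 0 h library 3 stood highest in their groups, and the groups overlapped at all 3 times. JOX4 passed none of the 12 comparisons. Its line differences were log2 2.098 ± 1.23 at 0 h, -0.66 ± 1.37 at 12 h and 1.27 ± 1.203 at 24 h (SE). The difference of JOX4 between 24 h and 0 h in the NAA50 line was called only without NAA50 24 h library 3, at -3.59 (edgeR adjusted p = 0.0371), against -0.55 ± 1.13 with it. Between 12 h and 0 h in the NAA50 line its difference of -2.92 ± 1.29 (adjusted p = 0.0714) was called without NAA50 0 h library 3 (0.0434), NAA50 24 h library 3 (0.0327) or scrambled 0 h library 3 (0.0428), and on only the groups compared (0.0361).

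**Figure D2:**
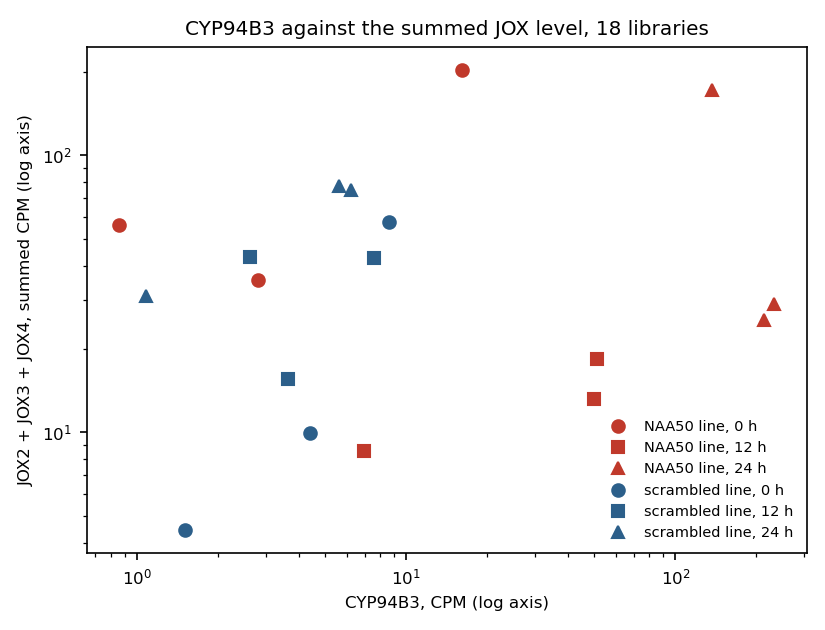
CYP94B3 level (x axis, CPM, log axis) against the summed level of JOX2, JOX3 and JOX4 (y axis, CPM, log axis), 1 point per library, with red for the NAA50 line, blue for the scrambled line and the symbol for the time. The 3 NAA50 libraries at 24 h have CYP94B3 at 136 to 233 CPM but summed JOX levels of 29.2, 25.5 and 172 CPM, and the highest JOX sum, 203 CPM, is in NAA50 0 h library 1 with CYP94B3 at 16.1 CPM.

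ST2A (AT5G07010; chromosome 5, positions 2174668 to 2176446, minus strand), the sulfotransferase of hydroxyjasmonic acid, was at 12.12, 9.64 and 23.0 CPM in the NAA50 line at 0 h, at 4.69, 3.92 and 2.63 CPM at 12 h, and at 2.65, 2.65 and 9.91 CPM at 24 h. Its scrambled line levels were 1.41, 1.29 and 6.93 CPM at 0 h, 5.65, 5.31 and 10.3 CPM at 12 h, and 2.60, 4.98 and 2.77 CPM at 24 h. At 0 h every NAA50 library was above every scrambled one, at 12 h every NAA50 library was below, and at 24 h the groups overlapped. The line difference was log2 2.19 ± 0.61 at 0 h, -0.92 ± 0.60 at 12 h and 0.59 ± 0.62 at 24 h (SE), and no time passed by edgeR over all 18 libraries (adjusted p = 0.175, 0.227 and 0.451). On only the groups compared, edgeR called ST2A lower at 12 h (-0.87, adjusted p = 0.0473). The response at 12 h was -3.11 ± 0.85 (SE; edgeR adjusted p = 0.0152), and it was called whichever library was left out, between -4.38 and -2.60. In the NAA50 line ST2A was lower at 12 h than at 0 h (-1.99 ± 0.59, adjusted p = 0.0103), a call lost without NAA50 0 h library 3 (0.0580). It was also lower at 24 h than at 0 h (-1.53 ± 0.57, adjusted p = 0.0342), a call lost without NAA50 0 h library 3 (0.159), NAA50 24 h library 1 (0.1245) or library 2 (0.122), or on only the groups compared (0.0537). The response at 24 h, -1.60 ± 0.87, did not pass (adjusted p = 0.181), and was called without NAA50 24 h library 3 (-2.56, 0.0307) or scrambled 0 h library 3 (-2.87, 0.0193). The neighbouring sulfotransferase gene ST2B is 90.25% identical over 99.7% of the ST2A coding length, so reads of the pair could be split by the counting. ST2B lay between 0.453 and 2.75 CPM.

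IAR3 (AT1G51760; chromosome 1, positions 19199351 to 19201707, plus strand), the amidohydrolase, was at 82.8, 84.2 and 78.1 CPM in the NAA50 line at 0 h, at 67.9, 54.6 and 70.8 CPM at 12 h, and at 128, 84.2 and 111 CPM at 24 h. The scrambled plants had 31.6, 23.0 and 66.5 CPM at 0 h, 64.0, 61.2 and 85.7 CPM at 12 h, and 107, 134 and 103 CPM at 24 h. At 0 h every NAA50 library lay above every scrambled library, and at 12 h and 24 h the groups overlapped. In the scrambled line IAR3 was higher at 24 h than at 0 h (log2 1.503 ± 0.29 SE, edgeR adjusted p = 0.000485), a call that held whichever library was left out. It was also higher at 12 h than at 0 h there (0.80 ± 0.28, adjusted p = 0.0320), a call lost without scrambled 0 h library 1 (0.120) or library 2 (0.158) or scrambled 12 h library 3 (0.129), or on only the groups compared (0.1275). In the NAA50 line the corresponding differences were 0.40 ± 0.28 at 24 h and -0.34 ± 0.28 at 12 h, and neither passed. The changes themselves differed between the lines, by log2 -1.14 ± 0.40 at 12 h (edgeR adjusted p = 0.0468) and -1.10 ± 0.40 at 24 h (0.0463). The 12 h value remained past the threshold only when the library left out was NAA50 24 h library 1 or 2, scrambled 0 h library 3 or scrambled 24 h library 2. Leaving out any of the other 14 gave adjusted p of 0.0519 to 0.109. The 24 h value remained so only without NAA50 24 h library 1, scrambled 0 h library 3, scrambled 12 h library 3 or scrambled 24 h library 3, and the other 14 gave 0.0530 to 0.115. Its longest unbroken coding match elsewhere in the genome, in ILL5, covers 27.2% of its coding length at 86.94% identity. Coding sequence was matched to genomic sequence, where introns break a match, so the likeness of the whole coding sequences was not measured. Whether the counting split reads between IAR3 and ILL5 was not tested.

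At 0 h, 0 of 7 members passed between the lines by edgeR, where 0.0872% of all tested genes were called higher and 0.0981% in either direction. All 7 log2 differences were above 0, with a median of 1.52 beside 0.00 over all tested genes, and 5 passed at an unadjusted p of 0.05. The shares above are for adjusted p, so these 5 cannot be set against them. Lying above 0 was not particular to the members. Of the lists described below, all tested JAZ genes (median 0.43), jasmonate outputs (1.11) and drought and abscisic acid genes (3.48) did so too. Biosynthesis genes had a median of 0.58 (lowest -0.02), relatives of the members 0.46 (lowest -0.98), and perception and transcription factor genes 0.09 (lowest -0.10). Without NAA50 0 h library 1, CYP94B3 was at -1.36 ± 1.01 (SE), JOX4 at 0.29 and JOX3 at 0.64, so that all 7 lay above 0 only with that library. By DESeq2, ST2A (2.20, adjusted p = 0.0276) and IAR3 (1.01, 0.0409) were called. Without scrambled 0 h library 3, edgeR called CYP94C1 (2.54, adjusted p = 0.0211), ST2A (3.46, 0.0171), JOX2 (2.89, 0.0180) and IAR3 (1.58, 0.00309). The shares of all tested genes above are those of edgeR over all 18 libraries. Those by DESeq2 or without a library are not given here, so these calls cannot be set against a share. That library was the highest of its group for every member in the table. Drought and abscisic acid genes summed to 124 to 1741 CPM in the NAA50 line at 0 h and to 129 to 174 CPM in the scrambled line at 0 h; their part in the 0 h levels was not tested.

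**Figure D3:**
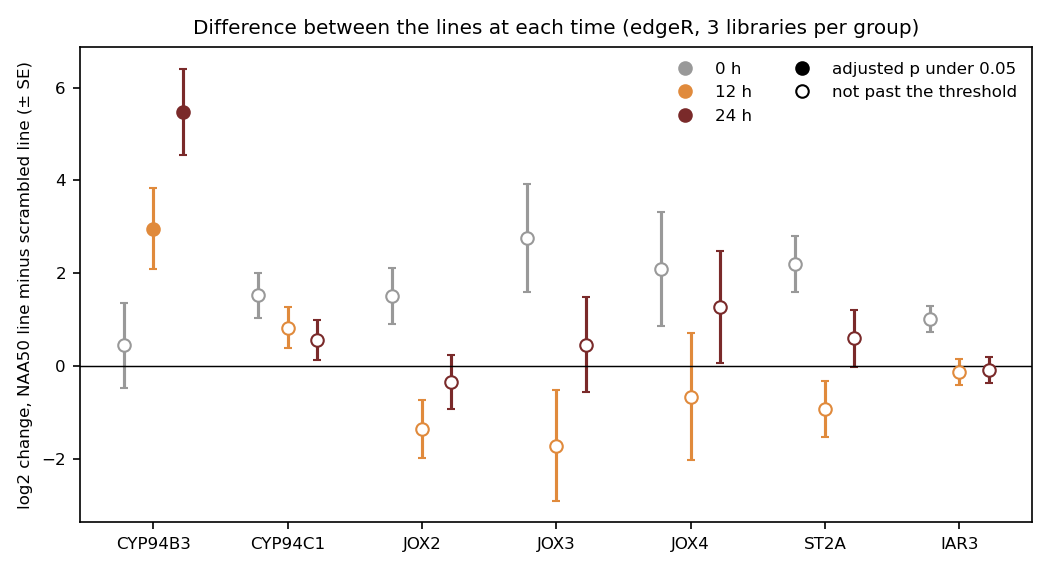
Fitted log2 difference between the NAA50 line and the scrambled line for each tested member at 0, 12 and 24 h (error bars, SE; 3 libraries per group; filled points, edgeR adjusted p under 0.05). CYP94B3 alone is past the threshold, at log2 2.96 at 12 h and 5.48 at 24 h, and all 7 members are above 0 at 0 h, where CYP94B3 is at -1.36 without NAA50 0 h library 1.

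Set against 0 h, the members did not all move the same way. At 12 h the response of the NAA50 line was lower for ST2A, JOX2 and IAR3 and higher for 0 of 7 members, with a median log2 of -2.76 beside -0.06 over all tested genes; 13.2% of all tested genes were called lower and 11.8% higher. JOX3 also had an unadjusted p under 0.05. A low median response at 12 h was not particular to the members, at -2.78 for jasmonate outputs and -1.87 for drought and abscisic acid genes. It was -0.47 for biosynthesis genes, -0.43 for JAZ genes, 0.12 for perception and transcription factor genes and 0.08 for relatives of the members. At 24 h the response was higher for CYP94B3 and lower for IAR3. The median of the members was then -1.10 beside -0.05 over all tested genes, and 14.7% of all tested genes were called higher and 15.1% lower. Every response uses the 0 h libraries of both lines, so the 12 h and 24 h values share 6 libraries. Between 12 h and 24 h the line difference was called changed for 0 of 7 members by edgeR and by DESeq2, 0 of them had an unadjusted edgeR p under 0.05, and 4.43% of all tested genes were called higher and 2.34% lower.

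Within the NAA50 line, 12 h against 0 h gave 1 member higher, CYP94B3, and 3 lower, JOX2, JOX3 and ST2A, and 26.2% of all tested genes were called higher and 24.4% lower. At 24 h against 0 h CYP94B3 was higher and ST2A lower, with 28.1% of all tested genes higher and 26.4% lower. At 24 h against 12 h CYP94B3 was higher and 0 members were lower, with 10.4% of all tested genes higher and 9.69% lower; 4 members had an unadjusted p under 0.05, all of them higher. Besides CYP94B3 these were JOX2 (1.69, adjusted p = 0.0693), JOX3 (3.35, 0.0576) and IAR3 (0.74, 0.0737), which DESeq2 called (0.0258, 0.0278 and 0.0477). Within the scrambled line, 12 h against 0 h gave IAR3 higher and 0 members lower, with 23.7% of all tested genes higher and 20.5% lower. At 24 h against 0 h IAR3 and CYP94C1 were higher and 0 members lower, with 27.6% of all tested genes higher and 26.5% lower. At 24 h against 12 h edgeR called 0 members and DESeq2 called IAR3 (0.73, adjusted p = 0.0416), which was also the 1 member with an unadjusted p under 0.05, and 14.4% of all tested genes were called higher and 16.3% lower. Genes of the daily clock moved in both lines: CCA1, LHY, TOC1 and GI summed to 1407 to 1550 CPM in the NAA50 line at 12 h and 351 to 395 CPM at 0 h, and to 1736 to 1862 CPM in the scrambled line at 12 h and 347 to 382 CPM at 0 h. At 24 h these genes summed to 1011 to 1070 CPM in the NAA50 line and to 1014 to 1103 CPM in the scrambled line. Such sums hide moves in opposite directions. Between the lines, 1 of the 4 clock genes was called higher and 2 lower at 12 h (log2 -0.50 to 0.93). At 24 h 1 was called higher and 1 lower (-0.26 to 1.42). By edgeR, 4 of 4 were called higher at 24 h than at 0 h in each line. The part of the hour of the day in the time differences was not tested.

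The make-up of the inactivation transcripts differed between groups. Levels were compared between genes per kilobase of exon, as CPM per kb. IAR3 was the most abundant member in 5 of 6 groups, at 45.0 ± 1.77 CPM per kb in the NAA50 line at 0 h and 35.4 ± 4.76 at 12 h, and at 22.2 ± 12.7, 38.7 ± 7.38 and 63.1 ± 9.28 CPM per kb in the scrambled line at 0 h, 12 h and 24 h (SD, n = 3 each). In the NAA50 line at 24 h CYP94B3 came above it, at 101 ± 26.6 CPM per kb beside 59.3 ± 12.16 for IAR3 (SD, n = 3). CYP94B3 made up 57.6%, 64.0% and 31.4% of the summed CPM per kb of the 8 members in the NAA50 line at 24 h, against 0.729%, 2.78% and 2.92% in the scrambled line at 24 h. At 12 h its share was 8.37% to 34.4% in the NAA50 line, against 1.80% to 6.07% in the scrambled line, and at 0 h it was 0.556% to 5.02% in the NAA50 line, against 3.65% to 11.2% in the scrambled line. The share of CYP94B3 therefore did not overlap between the lines at 12 h or 24 h and overlapped at 0 h. JOX2, JOX3 and JOX4 together held 8.57% to 11.2% in the NAA50 line at 12 h, against 14.7% to 31.2% in the scrambled line at 12 h, and 21.5% to 61.0% in the NAA50 line at 0 h, against 9.05% to 37.3% in the scrambled line at 0 h. At 24 h their share was 6.32% to 37.9% in the NAA50 line, against 18.5% to 36.2% in the scrambled line, and the lines overlapped. Shares within 8 genes are tied to each other, so a higher share of CYP94B3 lowers the rest.

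**Figure D4:**
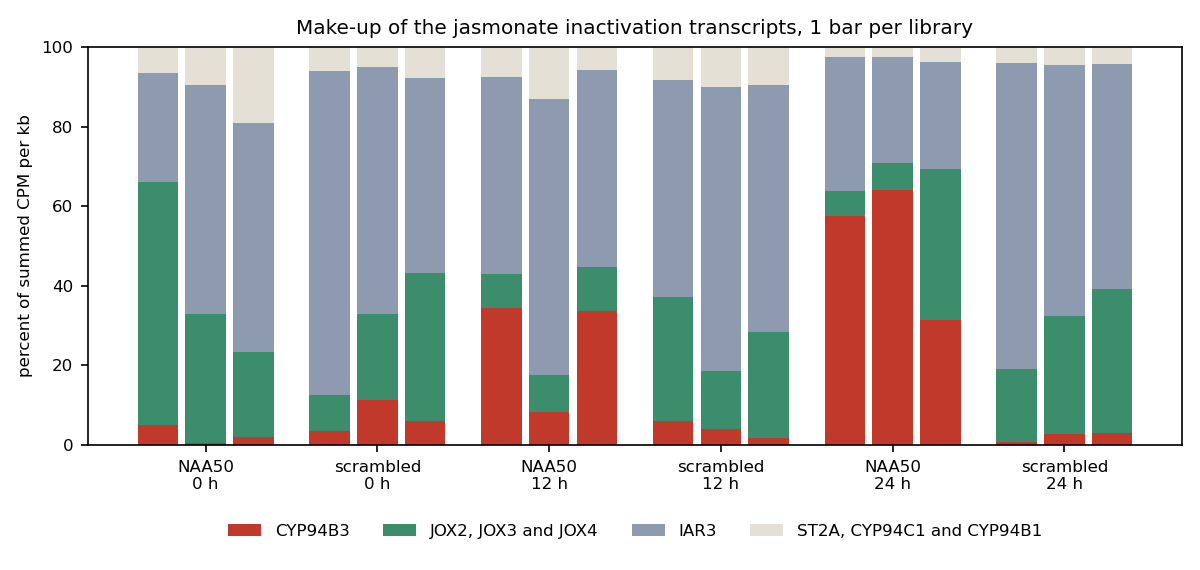
Make-up of the summed CPM per kb of the 8 members in each library, as percent, 1 bar per library, with the NAA50 line left of the scrambled line at 0, 12 and 24 h. CYP94B3 holds 31.4% to 64.0% in the NAA50 line at 24 h and at most 11.2% in any scrambled library.

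Other jasmonate genes were counted in full from fixed lists. Of 14 biosynthesis genes, 1 was higher and 1 lower at 12 h, and 4 were higher and 2 lower at 24 h. The 4 with the smallest adjusted p at 24 h were LOX6 (log2 -0.86) and JAR1 (-0.68), the conjugating enzyme, which were lower, and the cyclases AOC3 (2.18) and AOC4 (0.78), which were higher. Of 11 tested JAZ genes, 3 were higher and 2 lower at 12 h, and 4 were higher and 1 lower at 24 h. JAZ10, a repressor that makes a form resistant to destruction, was at 107, 92.7 and 92.2 CPM in NAA50 libraries at 12 h, against 3.46, 1.77 and 1.63 CPM in the scrambled line at 12 h. At 24 h it was at 147, 136 and 96.2 CPM in the NAA50 line, against 2.42, 2.26 and 6.10 CPM in the scrambled line. The JAZ10 groups did not overlap, and its log2 differences were 5.40 ± 0.62 at 12 h (edgeR adjusted p = 7.24e-06) and 5.12 ± 0.59 at 24 h (6.31e-06). JAZ12 (1.44) and JAZ1 (2.91) were also higher and JAZ3 (-1.33) lower at 24 h.

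Of 9 perception and transcription factor genes, 3 were higher and 2 lower at 12 h, and 4 were higher and 2 lower at 24 h. At 24 h the smallest adjusted p belonged to the repressor JAM2 (1.49), MYC4 (-0.99), ORA59 (3.44, on 12 to 29 reads per library in the NAA50 line and 1 to 4 in the scrambled line) and JAM1 (1.40). Of 5 tested output genes, 0 were higher and 2 lower at 12 h, namely TAT3 (-2.30) and PDF1.2 (-5.22), and at 24 h TAT3 was lower (-1.93) and BSMT1 higher (3.75, on 1, 55 and 14 reads in the NAA50 line and 1, 3 and 1 in the scrambled line). At an unadjusted p under 0.05, 2 outputs differed at each of these times. Of 8 tested relatives of the members, 2 were higher and 1 lower at both times. The amidohydrolase gene ILR1 was higher, by log2 0.95 at 12 h and 1.33 at 24 h, and CYP94D2 was lower, at log2 -0.51 at 12 h and -0.52 at 24 h. ILL5, a relative of IAR3, had 17, 6 and 52 reads in the NAA50 line at 12 h, against 0, 0 and 0 reads in the scrambled line, and 20, 38 and 16 reads in the NAA50 line at 24 h, against 0, 1 and 0 in the scrambled line. At these times only NAA50 libraries held enough ILL5 reads to count towards the low count filter. A call of ILL5 as higher is therefore no separate support. Over all tested genes the shares called in either direction were those given above, 46.2% at 12 h and 47.9% at 24 h.

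**Figure D5:**
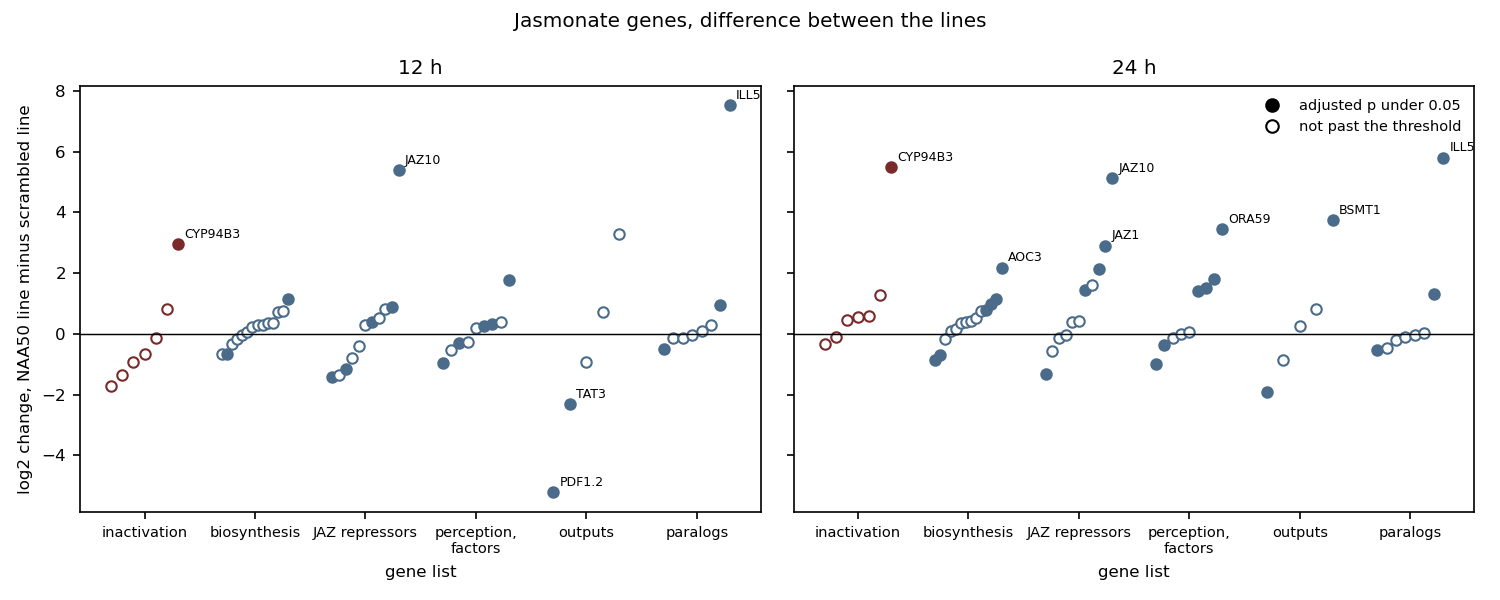
Fitted log2 difference between the NAA50 line and the scrambled line for the inactivation enzymes and 5 other lists at 12 h (left) and 24 h (right); each point is a gene, filled where the edgeR adjusted p is under 0.05, and names mark called genes beyond log2 2 in either direction among the 4 with the smallest adjusted p of each list. CYP94B3 is at 2.96 at 12 h and 5.48 at 24 h, JAZ10 at 5.40 and 5.12, and the highest relative of the members at 7.52 and 5.80. The other inactivation enzymes are open points.

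Some marker sums also differed between the lines at 12 h and 24 h. The xylem list, 4 of 4 in the table, summed to 85.2 to 118 CPM in NAA50 libraries at 24 h, against 15.6 to 39.5 CPM in the scrambled line at 24 h, and to 39.6 to 42.8 CPM in NAA50 libraries at 12 h, against 20.8 to 32.1 CPM in the scrambled line at 12 h, with none at 0 in a whole group. The drought and abscisic acid genes, 6 of 6, summed to 2296 to 4032 CPM in NAA50 libraries at 24 h, against 194 to 325 CPM in the scrambled line at 24 h, and to 840 to 1223 CPM in NAA50 libraries at 12 h, against 201 to 319 CPM in the scrambled line at 12 h. The leaf markers, 5 of 5, summed to 15784 to 20367 CPM in NAA50 libraries at 24 h, against 19287 to 31358 CPM in the scrambled line at 24 h, and to 17124 to 24548 CPM in NAA50 libraries at 12 h, against 35547 to 43390 CPM in the scrambled line at 12 h. The guard cell list, 4 of 4, summed to 33.7 to 36.2 CPM in NAA50 libraries at 24 h, against 51.6 to 62.2 CPM in scrambled libraries, and to 26.4 to 33.7 CPM in NAA50 libraries at 12 h, against 43.8 to 48.5 CPM in scrambled libraries. Guard cell sums were thus lower in the NAA50 line without overlap at both times, and leaf sums at 12 h. The phloem list, 4 of 4, summed to 808 to 1183 CPM in NAA50 libraries at 24 h, against 667 to 741 CPM in scrambled libraries, and to 686 to 759 CPM in NAA50 libraries at 12 h, against 572 to 606 CPM in scrambled libraries. The trichome and epidermis list, 3 of 4, summed to 455 to 788 CPM in NAA50 libraries at 24 h, against 269 to 339 CPM in scrambled libraries, and overlapped at 12 h. The root list, 4 of 4, summed to 46.2 to 59.6 CPM in NAA50 libraries at 24 h, against 46.0 to 54.6 CPM in the scrambled line at 24 h, and to 101 to 115 CPM in NAA50 libraries at 12 h, against 74.6 to 85.1 CPM in scrambled libraries. At 12 h PYK10, RCI3 and CASP1 were at 0 in all NAA50 libraries, so the root sum there was that of SCR alone, and CASP1 was at 0 in all scrambled libraries. At 24 h PYK10 was at 0 in all NAA50 libraries, and RCI3 and CASP1 were at 0 in all scrambled libraries. The part of these sums in the CYP94B3 result was not tested.

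By Pearson correlation of log2 CPM over the 18 libraries, the genes most like CYP94B3 were SRO5 (r = 0.950), AT3G19240 (0.944) and NCED9 (0.940). For CYP94C1 they were OPR3 (0.907), TIM17-1 (0.889) and WRKY45 (0.888), OPR3 being a biosynthesis enzyme of jasmonic acid. For JOX2 they were GH3.3 (0.907), KAT3 (0.875) and AT4G37520 (0.868), and for JOX3 RLP40 (0.912), KTI1 (0.905) and AMY1 (0.898). For JOX4 the first 2 were JOX2 (0.867) and JOX3 (0.859), followed by KTI1 (0.806). For ST2A they were ASB1 (0.796), AT5G44380 (0.768) and NATA1 (0.748), the weakest likeness of the 7. For IAR3 they were NAC016 (0.970), CHI (0.964) and PR1 (0.960). These values rank likeness over 18 libraries that share lines and times, and carry no test.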

How the data were processed

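The study sequenced messenger RNA of leaves from 2 transgenic Arabidopsis lines at 3 times, with 3 libraries per group. The authors deposited raw counts per gene; per the submitters' processing notes, the tools were Trimmomatic, STAR and DESeq2 with build TAIR10. The counting step and its strand setting, and all versions: not given in the sources used here. Per the labels' protocols the library kit was stranded. Members and gene lists were chosen with earlier results of these data known, and the named genes are the members, up to 4 genes per list by smallest adjusted p, and 3 most similar genes per member.

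Counts were fitted with edgeR 4.0.16 in R 4.3.3 (genes kept by filterByExpr at min.count 10 and min.total.count 15; TMM factors; 6 group means over 18 libraries; quasi-likelihood F test). The biological coefficient of variation was 18.16%, and 12 degrees of freedom were left for the spread. P-values were Benjamini-Hochberg adjusted over 18344 genes, with 0.05 as threshold. SEs are the absolute log2 change over the square root of F. The likeness used log2 CPM with a prior count of 2. The fit was tested on simulated data. Alternatives were DESeq2 1.42.0, RLE scaling, library size only, no filter, the replicate number as a block, fits on only the groups compared, and leaving out each library. Intervals are between libraries; totals of 10389333 to 12353330 counts set the precision of low genes. Promoter windows, lengths and loci come from the TAIR10.1 RefSeq assembly, and coding identity from mafft 7.526 and BLAST 2.17.0.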

Additional observations from a re-analysis of the deposited data

Results flagged for a closer look

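The change of a member since 0 h was compared between the lines by the interaction of line and time, and 5 such differences passed by edgeR's quasi-likelihood test. At 12 h they were ST2A (log2 -3.11), JOX2 (-2.87) and IAR3 (-1.14), all lower in the NAA50 line. At 24 h they were CYP94B3 (5.04), higher in the NAA50 line, and IAR3 (-1.10), lower. For ST2A, JOX2 and IAR3 the line difference at 0 h, with the NAA50 line higher, was at least as large as that at 12 h in the other direction, and neither passed alone. For CYP94B3 the line difference was 0.44 at 0 h and 5.48 at 24 h. Groups of 3 libraries were not tested for outlying samples.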

How the results depend on the processing

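Over 24 alternatives, 1892 of 2016 member values kept their side of the threshold, 57 crossed to a call and 67 lost one, with no called value changing sign; 50 that passed in neither fit changed sign. CYP94B3 was called under all 24 between the lines at 12 h (log2 2.62 to 3.52) and 24 h (5.03 to 5.83) and for the response at 24 h (4.29 to 6.85).

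All shares of tested genes given above are those of the edgeR fit over all 18 libraries. Shares under the alternatives are not given here, so the counts that follow cannot be set against one. DESeq2 called 2 members between the lines at 0 h, 2 at 12 h, 3 for 24 h against 12 h in the NAA50 line and 1 in the scrambled line. Fits on only the groups compared called 5 between the lines at 12 h (CYP94B3 and CYP94C1 higher, ST2A, JOX2 and JOX3 lower), 5 for 12 h in the NAA50 line (ST2A, JOX2, JOX3, JOX4 and IAR3, all lower, without CYP94B3), 1 for the response at 24 h, 1 for 24 h and 3 for 24 h against 12 h in the NAA50 line, and 0 at 12 h, 1 at 24 h and 1 for 24 h against 12 h in the scrambled line. Library size scaling called 1 in that last comparison. IAR3's response at 12 h was lost with RLE scaling (adjusted p = 0.0510), library size only (0.0864), no filter (0.0512) and only the groups compared (0.0701), and its response at 24 h with the last (0.0882). The cause was not tested.

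Leaving out a library moved the calls between the lines to 0 to 4 at 0 h, 1 to 2 at 12 h and 1 to 1 at 24 h, the responses to 1 to 4 at 12 h and 1 to 5 at 24 h, and the difference of 24 h and 12 h to 0 to 0. In the NAA50 line the counts were 2 to 5 at 12 h, 1 to 4 at 24 h and 0 to 4 for 24 h against 12 h, and in the scrambled line 0 to 4, 1 to 4 and 0 to 1.

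Correlations of the deviations of same-numbered libraries were -0.485 to 0.409, 21 of 45 above 0.1, and all 3 were above 0.1 in 2 of 15 pairs of groups. In 1 of these, the NAA50 and scrambled lines at 12 h (0.128, 0.220 and 0.342), the block changed no member's call. Over the 6 groups the numbers were not taken to pair the libraries. With the replicate block, JOX2 was called for the response at 24 h (-2.39, 0.0343), JOX4 for 12 h in the NAA50 line (-3.16, 0.0428), JOX3 for 24 h (2.84, 0.0483) and IAR3 for 24 h against 12 h (0.74, 0.0477) in the scrambled line, the last count being 1.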
